A study of Mus musculus with 12 samples.

Results

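Homozygous POMC KO tumor was compared with normal mouse pituitary over the 45037 probe sets of an Affymetrix whole-genome mouse array. The comparison used 4 of the 12 arrays of the series, 2 of tumor tissue from mice with both copies of the pro-opiomelanocortin gene (POMC, Pomc in the mouse) knocked out and 2 of normal pituitary. None of the mice had been treated, the tissue of every array was labelled pituitary gland, and the labels give no age, sex or strain. The other 8 arrays held tumors of heterozygous POMC KO mice. They entered the fit for their spread, and their values are given beside those of the homozygous tumor. The study's methods name pooled normal mouse pituitary as the reference, and whether each normal array held a pool is not known here.

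POMC is the precursor that corticotrophs of the anterior lobe cut to adrenocorticotropic hormone (ACTH), the pituitary signal for adrenal glucocorticoid production, and that melanotrophs of the intermediate lobe cut to alpha-melanocyte-stimulating hormone and related peptides. The other hormone cells of the anterior lobe are somatotrophs, lactotrophs, thyrotrophs and gonadotrophs. Mice without POMC produce little glucocorticoid. Mice with 1 or both copies knocked out develop pituitary tumors that the study describes as nonfunctioning and used as a model of human nonfunctioning pituitary adenoma.

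The 2 homozygous arrays were near duplicates. Their correlation over all probe sets was 0.998, and 2 probe sets differed between them by more than 2-fold. The 2 normal arrays had a correlation of 0.993 and differed by more than 2-fold at 309 probe sets, and homozygous and normal arrays differed at 1792 to 1981. The homozygous arrays were therefore averaged and counted as 1 sample, as were the 4 like pairs of heterozygous arrays, and the fit had 7 samples and 4 residual degrees of freedom. The lone homozygous sample was assumed to vary as the heterozygous and normal samples do, and the p-values take no account of the spread between homozygous mice. A probe set was tested where its log2 signal reached the median of all values (5.74) on at least 2 arrays, and the 24486 tested probe sets named 12316 genes. A gene that passed this filter only through the 2 homozygous arrays could be tested only because it is high there. A gene was called where its limma p-value, adjusted by the Benjamini-Hochberg method over all tested probe sets, was under 0.05 and its fold change was over 2. Values below are log2 signals, and differences are log2 fold changes with their standard error (SE). Fewer cells of a type and less RNA per cell cannot be told apart in such tissue.

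Sex-linked genes separated the groups. Xist, the RNA that silences an X chromosome in female cells, was at 11.23 and 11.16 in the homozygous arrays and at 5.07 and 4.57 in the normal arrays. Eif2s3y, a Y-linked gene, was at 3.62 and 3.70 against 8.62 and 8.89, and Kdm5d and Uty, also Y-linked, had the same order. The homozygous tumor thus read as female and both normal samples as male, and for this contrast sex and genotype cannot be told apart. Of the 4 heterozygous samples, 2 had high and 2 had low Xist, which allowed a fit with the Xist level as a covariate. The Gapdh control probe sets also differed, with the 3' minus the 5' signal at -0.21 and -0.21 in the homozygous arrays and at 0.23 and 0.08 in the normal arrays. Beside that fit, values of the high- and low-Xist heterozygous samples are given below for the gene lists that they touch, and the part of the Gapdh difference was not tested.

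**Figure D1:**
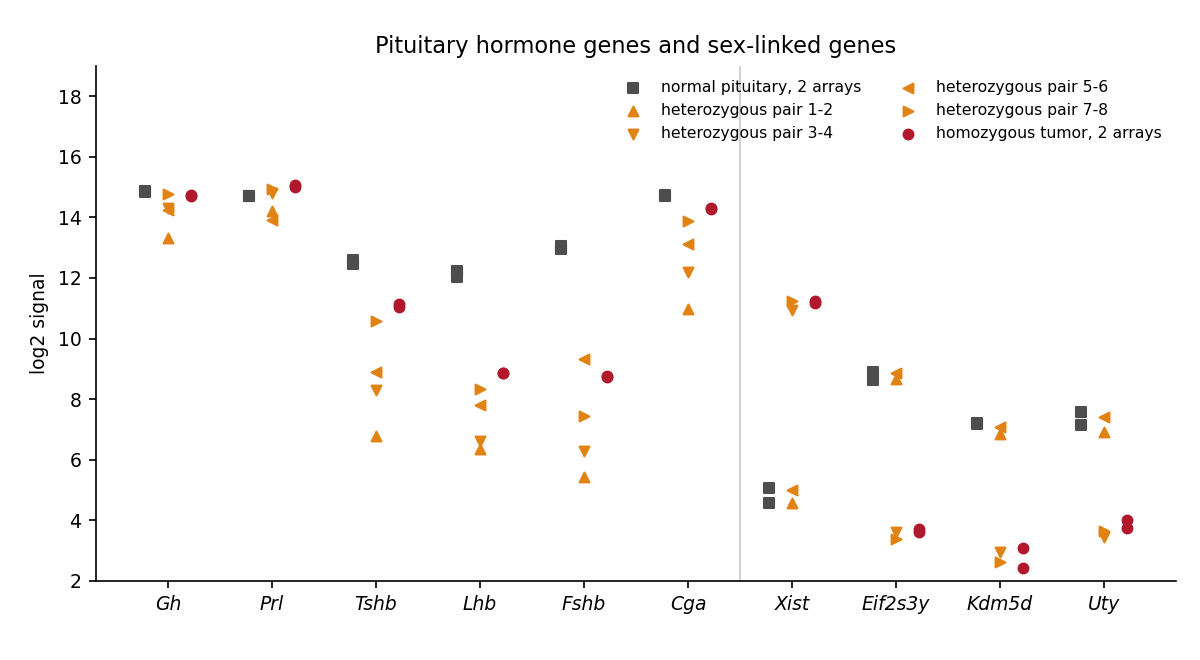
Log2 signal (vertical axis) of 6 pituitary hormone genes (left of the grey line) and 4 sex-linked genes (right) in the 2 normal arrays (squares), the means of the 4 heterozygous pairs (triangles) and the 2 homozygous arrays (circles). Gh, Prl and Cga in the homozygous tumor lie near the normal values and Lhb and Fshb lie below them, while Xist is high and Eif2s3y, Kdm5d and Uty are low in the homozygous tumor.

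Pomc, the targeted gene, fell most of all called genes. Its brighter probe set was at 7.07 and 7.28 in the homozygous arrays and at 15.08 and 15.11 in the normal arrays, a log2 fold change of -7.92 (SE 0.15, adjusted p = 1.11e-06 from limma). The other probe set was at 5.67 and 5.74 against 14.97 and 14.93, a log2 fold change of -9.25 (SE 0.15). The normal signals lie near the top of the array's range, where signal may no longer rise with RNA, so that the size of the fall is uncertain and its SE covers only the spread between samples. The groups were far apart at both, and the homozygous values of the other probe set lay at about the median of all values on the array. Where either probe set lies relative to the deleted part of the gene is not known here. Of the 17 tested genes nearest to Pomc on its chromosome that the annotation could place, 0 were called in limma, with log2 fold changes from -0.68 to 0.51. At an unadjusted p under 0.05 there were 3, and the lowest adjusted p was 0.152, for Efr3b.

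Over all tested genes, 339 were called, 177 higher and 162 lower in the homozygous tumor. These are 1.44% and 1.32% of the tested genes, the background against which the counts for single groups of genes below are read. The median log2 fold change of all tested genes was -0.03. Over 4-fold changes were found for 56 genes in the higher and 35 in the lower direction, and over 8-fold changes for 12 and 6. A further 482 genes differed by more than 2-fold and did not pass the adjusted p. The count rests on both normal samples: without normal 1 it was 35 genes and without normal 2 it was 34, and without the heterozygous pair 3-4 it was 209. With the Xist level as a covariate 256 genes were called, 99 higher and 157 lower, of which 136 had the same call as before. All 339 called genes kept the sign of their difference in that fit.

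**Figure D2:**
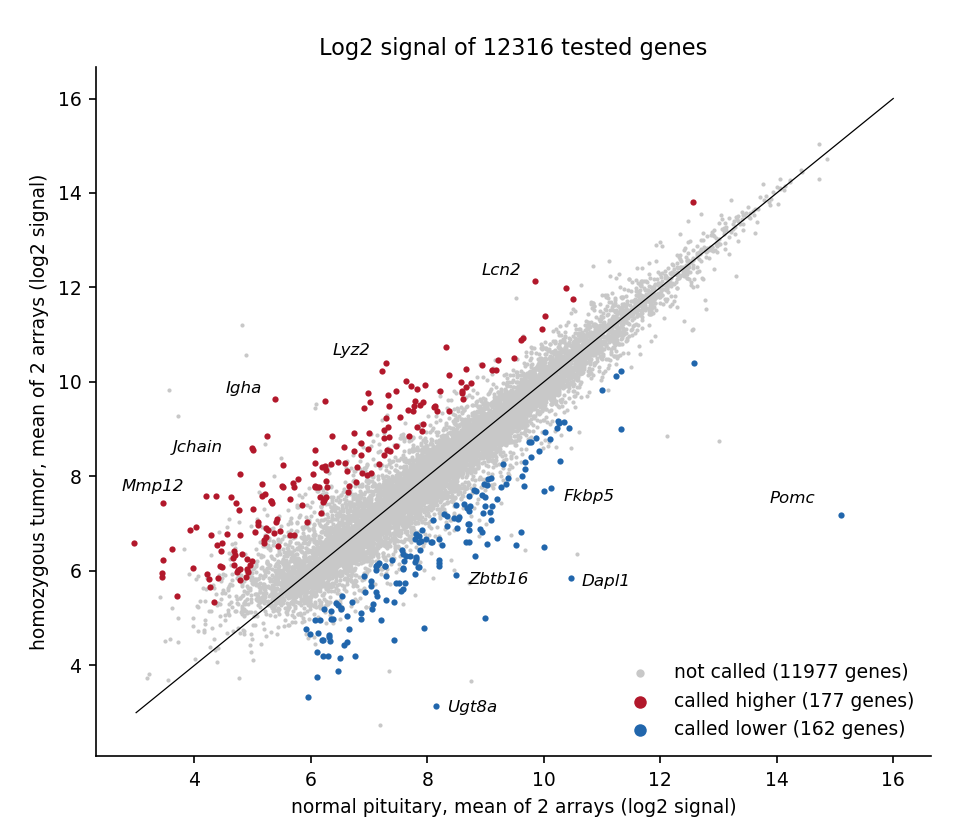
Mean log2 signal of each tested gene in the 2 normal arrays (horizontal axis) and the 2 homozygous arrays (vertical axis), with genes called higher in red (177), called lower in blue (162) and the rest in grey, and the line of equal signal. Pomc lies alone at the lower right, with 15.10 in normal pituitary and 7.18 in the homozygous tumor.

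Of 39 tested genes that act in mitosis, 15 rose and 0 fell, with a median log2 fold change of 1.56 against -0.03 over all tested genes, and 38 of the 39 had a positive value. Of 36 tested genes of DNA replication and nucleotide synthesis, 11 rose and 0 fell, with a median of 1.27, and all 36 had a positive value. Cdca8, a subunit of the chromosomal passenger complex, was at 7.77 and 7.80 in the homozygous and at 5.57 and 5.48 in the normal arrays, a log2 fold change of 2.26 (SE 0.25, adjusted p = 0.0102, limma). Ccnb2, a cyclin of the mitotic kinase, was at 7.90 and 7.80 against 5.41 and 5.98 (2.16, SE 0.37). Cdk1, that kinase itself, was at 8.61 and 8.64 against 6.34 and 6.80 (2.05, SE 0.31). For all 3 genes both homozygous arrays lay above both normal arrays by more than the normal arrays differed. The genes were chosen as called and the homozygous arrays are near duplicates, so this gap gives no support of its own. Birc5 (survivin, of the passenger complex; 2.12, SE 0.32) and Ube2c (a ubiquitin-conjugating enzyme of mitotic exit; 1.98, SE 0.34) also rose, and so did Bub1, Pbk, Cdc20, Cenpa, Cdca3, Ttk, Cks2, Ccna2, Ect2 and Kif20a. Mki67, a proliferation marker, had a log2 fold change of 1.98 (adjusted p = 0.0575, limma) and Top2a one of 1.87 (adjusted p = 0.0915), and neither was called. Foxm1 (-0.03) was the only member of the mitosis list with a value below 0.

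Among the 11 replication genes that rose, Mcm6, of the replicative helicase, was at 9.75 and 9.77 in the homozygous and at 6.73 and 7.24 in the normal arrays (log2 fold change 2.77, SE 0.42, adjusted p = 0.0242, limma). Cdt1, which loads that helicase, was at 9.72 and 9.71 against 7.32 and 7.34 (2.39, SE 0.24). Rrm2, a subunit of ribonucleotide reductase, was at 8.55 and 8.55 against 5.98 and 6.18 (2.47, SE 0.30). Pole2 and Cdc6 rose by 2.16 and 2.15 on the log2 scale, and Mcm2, Mcm5, Gins1, Prim1, Rfc4 and Dut by 1.60 to 1.80. Other members of the same complexes and pathways, such as Mcm3 (1.91, adjusted p = 0.0513, limma), Mcm7 (1.48, 0.0869) and Rrm1 (1.07, 0.120), were not called. Of 29 tested genes of G1 control, 2 rose and 1 fell, with a median of 0.13. Ccne2, a cyclin of S-phase entry, rose by 2.17 (SE 0.21) and Cdkn2c, an inhibitor of the G1 kinases, by 1.78 (SE 0.19), whereas Ccnd1 (cyclin D1) fell by 1.08 on the log2 scale (SE 0.21). Ccnd1 was not called with the Xist covariate or with arrays centred on housekeeping genes. It was also lost without any of the heterozygous pairs 3-4, 5-6 and 7-8, normal 1 or normal 2. Ccne2 was not called without normal 1, nor Cdkn2c without normal 1 or normal 2. Chek1 and Rad51ap1, which act in the response to stalled or broken DNA, were the only called genes among 30 of the DNA damage list, with log2 fold changes of 1.65 and 2.23.

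The counts of these lists depended on the samples. In the fit with the Xist covariate 1 mitosis gene and 4 replication genes were called, where the median log2 fold change of the mitosis list was 1.4 in place of 1.56 and its median SE was 0.42 in place of 0.32. Without the heterozygous pair 3-4 the counts were 8 and 8, without pair 5-6 they were 26 and 20, and without normal 1 or normal 2 no mitosis gene and 0 or 1 replication genes were called. In the heterozygous samples the mitosis list differed between high and low Xist by a median of 0.06, and the replication list by 0.21, both on the log2 scale.

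**Figure D3:**
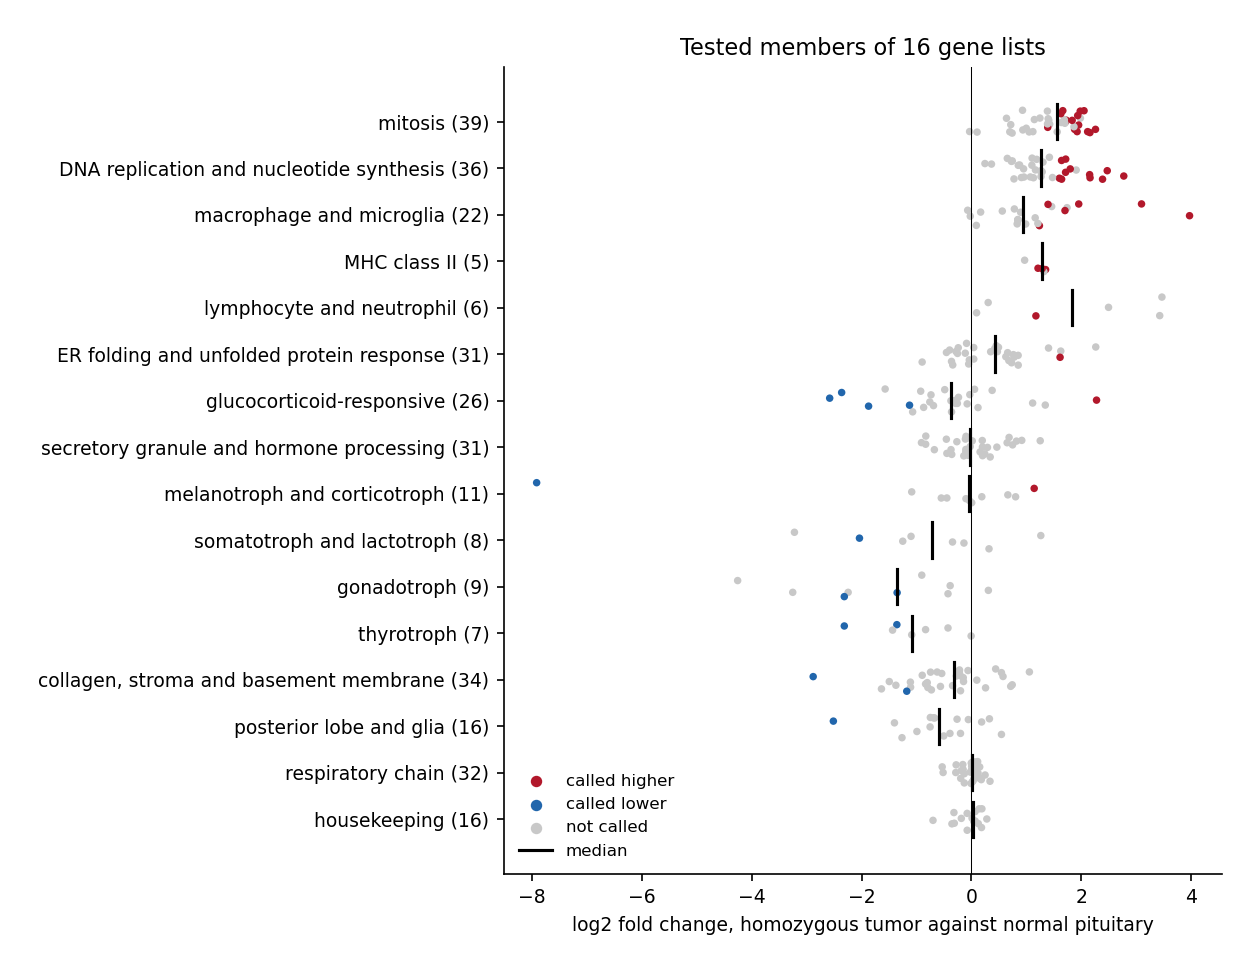
Log2 fold change (horizontal axis) of every tested member of 16 gene lists, homozygous tumor against normal pituitary, with the number of tested members in brackets, genes called higher in red, called lower in blue, not called in grey, and the median of each list as a black bar. The mitosis and replication lists lie almost wholly above 0 (medians 1.56 and 1.27), the gonadotroph list mostly below (-1.35), and the respiratory chain and housekeeping lists at about 0.

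Promoters of mitosis and replication genes that rose are shown with the short sequences known as background for the timing of such genes. Genes of mitosis often carry a cell cycle homology region (CHR, TTTGAA) near CCAAT boxes, and genes of S phase often carry E2F sites. The windows are 300 bases long, mostly upstream of the RefSeq transcript start (GRCm38.p6), each read 5' to 3' in the direction of the gene. Capitals mark matches on either strand to the letters TTTCCCGC, TTTGGCGC or TTCCCGCC (E2F-type), TTTGAA (CHR) and CCAAT (read as ATTGG on the other strand). The 4 windows are those of the 2 mitosis and the 2 replication genes with the largest rises among genes with 1 window and at least 2 of the 3 kinds of match.
Cdca8: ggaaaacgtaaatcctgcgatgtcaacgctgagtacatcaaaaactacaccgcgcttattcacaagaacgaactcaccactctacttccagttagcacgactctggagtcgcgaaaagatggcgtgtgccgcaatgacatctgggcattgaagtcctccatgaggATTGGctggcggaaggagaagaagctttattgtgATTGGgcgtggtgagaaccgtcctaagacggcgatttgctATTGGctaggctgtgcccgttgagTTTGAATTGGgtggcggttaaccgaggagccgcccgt
Ccnb2: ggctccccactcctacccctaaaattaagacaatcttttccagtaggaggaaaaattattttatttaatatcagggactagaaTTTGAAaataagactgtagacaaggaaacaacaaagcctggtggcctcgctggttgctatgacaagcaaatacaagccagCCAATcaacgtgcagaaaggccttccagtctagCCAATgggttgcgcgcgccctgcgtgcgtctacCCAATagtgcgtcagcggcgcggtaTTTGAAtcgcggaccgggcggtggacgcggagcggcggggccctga
Mcm6: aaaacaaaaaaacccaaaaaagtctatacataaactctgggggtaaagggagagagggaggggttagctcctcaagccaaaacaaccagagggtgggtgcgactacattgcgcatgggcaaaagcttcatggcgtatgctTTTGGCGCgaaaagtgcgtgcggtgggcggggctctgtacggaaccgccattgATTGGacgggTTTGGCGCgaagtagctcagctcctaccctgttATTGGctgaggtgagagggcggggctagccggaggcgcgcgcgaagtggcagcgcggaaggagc
Mcm5: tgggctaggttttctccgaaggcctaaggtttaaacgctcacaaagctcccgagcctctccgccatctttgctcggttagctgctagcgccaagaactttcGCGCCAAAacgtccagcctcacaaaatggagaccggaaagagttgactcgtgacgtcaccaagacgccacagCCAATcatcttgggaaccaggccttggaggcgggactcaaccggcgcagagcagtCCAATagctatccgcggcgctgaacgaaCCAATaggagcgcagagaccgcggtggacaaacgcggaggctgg
The Cdca8 window (chr4:124936868-124937167, minus strand) held 1 CHR and 4 CCAAT matches, the CHR sharing a base with the nearest CCAAT match. The Ccnb2 window (chr9:70421505-70421804, minus strand) held 2 CHR and 3 CCAAT matches. The Mcm6 window (chr1:128359656-128359955, minus strand) held 2 E2F-type and 2 CCAAT matches, and the Mcm5 window (chr8:75109259-75109558, plus strand) held 1 E2F-type and 3 CCAAT matches.

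The same search was run over all 32851 RefSeq promoter windows of this length, of which 17.9% held a CHR, 37.4% a CCAAT and 3.21% an E2F-type match. The 15 mitosis genes that rose had 13 windows for 12 of them, and 10 windows (76.9%) held a CHR and 12 (92.3%) a CCAAT match, with 0 holding an E2F-type match. The 11 replication genes that rose had 10 windows, and 7 (70.0%) held an E2F-type match, 1 a CHR and 5 a CCAAT match. Over the 12784 windows of all tested genes the shares were 11.6%, 37.3% and 5.68%. The 151 genes called higher that are in neither list had 147 windows, with shares of 21.1% for the CHR, 38.1% for the CCAAT and 8.16% for the E2F-type letters. In the 168 windows of genes called lower the shares were 7.74%, 32.1% and 2.98% in the same order. Members of both lists that were not called were not counted apart. The shares of the mitosis and replication genes may thus belong to the lists as such and are not read as a trait of the genes that rose. Matches are counts of letters in these windows and are not sites of binding.

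Of 22 tested macrophage and microglia markers 6 rose and 0 fell, with a median log2 fold change of 0.94, and 20 of the 22 had a positive value. Mmp12, the macrophage metalloelastase, was at 7.49 and 7.38 in the homozygous and at 3.60 and 3.32 in the normal arrays (3.97, SE 0.45, adjusted p = 0.0107, limma). Lyz2, the lysozyme of myeloid cells, was at 10.35 and 10.44 against 7.12 and 7.48 (3.10, SE 0.40, adjusted p = 0.0150). Both genes were far above the normal arrays. Fcgr3 (an IgG receptor, 1.95), Ptprc (CD45 of all leukocytes, 1.70), Cd53 (a leukocyte tetraspanin, 1.4) and Ctss (cathepsin S, 1.24) rose as well. Several defining members did not pass: Csf1r, the receptor for the macrophage growth factor, had a log2 fold change of 0.09, Cx3cr1 0.17, Trem2 -0.02 and C1qa 0.85. The mean level of the list was 7.64 in the homozygous sample and 6.37 and 6.57 in the normal samples. Clec4n (dectin-2, 3.38), Ccl6 (a chemokine, 3.27), Cd36 (a scavenger receptor, 2.95) and Arg1 (arginase 1, 2.94), which are not in the list, were among the 20 largest rises. With the Xist covariate 2 of the 22 markers were called, and without normal 1 or normal 2 none.

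Of 5 tested MHC class II genes, which present peptides to helper T cells, 3 rose. H2-Ab1 was at 9.51 and 9.46 against 7.94 and 8.32 (log2 fold change 1.35, SE 0.25), Cd74 rose by 1.29 (SE 0.24) and H2-Eb1 by 1.21 (SE 0.24), with adjusted p-values of 0.0395 to 0.0482 in limma. None of the 3 was called without the heterozygous pair 1-2, pair 3-4, normal 1 or normal 2. Of 29 tested interferon response and MHC class I genes 0 were called in limma (3 at an unadjusted p under 0.05), with log2 fold changes from -0.60 to 0.61. Cd3d, of the T cell receptor complex, rose by 1.17 (SE 0.22), while Cd3e was at 0.09 and Cd4 at 0.30. Cd3d passed the filter on low values only through the homozygous arrays. The Cd3d call was lost with the pair as a random block (adjusted p = 0.104, limma) and without normal 1, normal 2 or any of the heterozygous pairs 1-2, 3-4 and 5-6 (0.0513 to 0.157). The neutrophil calprotectin genes S100a8 (9.45 and 9.60 against 5.83 and 6.35) and S100a9 (8.74 and 8.62 against 4.71 and 5.71) had log2 fold changes of 3.43 and 3.47 and were not called (adjusted p = 0.120 and 0.0744, limma). Their heterozygous samples had an SD of 1.20 and 0.92, the spread that entered the SE.

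The largest rise among called genes was of an antibody gene. Igha, the constant region of the IgA heavy chain, was at 9.77 and 9.52 in the homozygous and at 5.49 and 5.30 in the normal arrays (4.25, SE 0.67, adjusted p = 0.0271, limma). Its probe set carries the suffix that marks probes shared with other transcripts, so the immunoglobulin class read from it is uncertain. Jchain, the joining chain of polymeric antibody, was at 8.57 and 8.63 against 4.90 and 5.09 (3.61, SE 0.41). Derl3, a derlin of the endoplasmic reticulum that is abundant in plasma cells, was at 10.09 and 9.97 against 7.67 and 7.60 (2.40, SE 0.31). All 3 were also called in the heterozygous tumors, with log2 fold changes of 2.48 for Igha, 1.87 for Jchain and 1.19 for Derl3 against the same normal samples. A list of 15 plasma cell genes, drawn up after these values were seen and giving no support of its own, had 7 tested members, of which these 3 rose. Xbp1 (0.04), Ighm (0.38), Prdm1 (1.25) and Sdc1 (-0.78) were not called, and Irf4, Cd79a, Tnfrsf17, Mzb1 and Pou2af1 were below the filter on low values. With the Xist covariate Igha was not called (adjusted p = 0.0798, limma), nor without normal 1 (0.110) or normal 2 (0.115).

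Several secreted proteins known from glands and mucosa rose. Wfdc18, a secreted WAP-domain protein, was at 8.70 and 8.43 in the homozygous and at 5.14 and 4.87 in the normal arrays (3.56, SE 0.45). Bpifa2, a salivary gland protein, was at 6.05 and 5.86 against 3.48 and 3.41 (2.51, SE 0.19). Orm2, an acute phase plasma protein, was at 6.50 and 6.67 against 2.96 and 2.97 (3.62, SE 0.50). Lcn2, the iron-binding lipocalin of neutrophils and epithelia, was at 12.14 and 12.13 against 9.81 and 9.91 (2.28, SE 0.35), a high level already in normal pituitary. Sftpd (surfactant protein D, 2.47), Slc6a14 (an amino acid transporter, 2.43), Chil1 (a chitinase-like lectin, 2.72) and Lyz1 (2.42, near-identical to Lyz2, so that its probes may read both) also rose. In a list of 23 secretory epithelium genes that was likewise drawn up after the values were seen, 10 were tested and 6 rose. Of its other members, Scgb1a1, Muc5b, Krt5, Krt14 and Foxj1 were under the median of all values on all 4 arrays. Epcam (0.20), Krt18 (-0.18), Krt8 (-0.93) and Wfdc2 (-0.02) were well above it in both groups and were not called. The part of such tissue in these rises was not tested. Bpifa2, Orm2 and Slc6a14 passed the filter on low values only through the homozygous arrays, so their rise is partly built in. Of 6 tested neutrophil granule genes, again chosen after the values were seen, Lcn2 and Camp (an antimicrobial peptide, at 5.82 and 6.06 against 4.08 and 4.34, 1.73, SE 0.33) rose, and Mpo and Elane, which define immature neutrophils, were under the median of all values on all 4 arrays. Camp also passed the filter only through the homozygous arrays.

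The genes of inducible Hsp70 rose. Hspa1b was at 10.13 and 10.32 in the homozygous and at 6.79 and 7.66 in the normal arrays (3.0, SE 0.34), and Hspa1a, its near-identical neighbour, was at 9.47 and 9.43 against 6.62 and 7.21 (2.53, SE 0.28). Of 12 tested heat shock genes, a list made after the values were seen, these were the only 2 called, with a median over the list of 0.01. Hsph1 (-0.68), Dnajb1 (0.32) and Hsp90aa1 (-0.06) were not called. Of 31 genes of protein folding in the endoplasmic reticulum 1 rose, with a median of 0.42. This was Creld2, a folding factor induced by misfolded protein, at 12.01 and 11.97 against 10.45 and 10.30 (1.61, SE 0.27). Sdf2l1 (2.26, adjusted p = 0.0953, limma) and Pdia4 (1.63, adjusted p = 0.224) were not called, nor was Hspa5 (BiP), at 0.42.

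**Figure D4:**
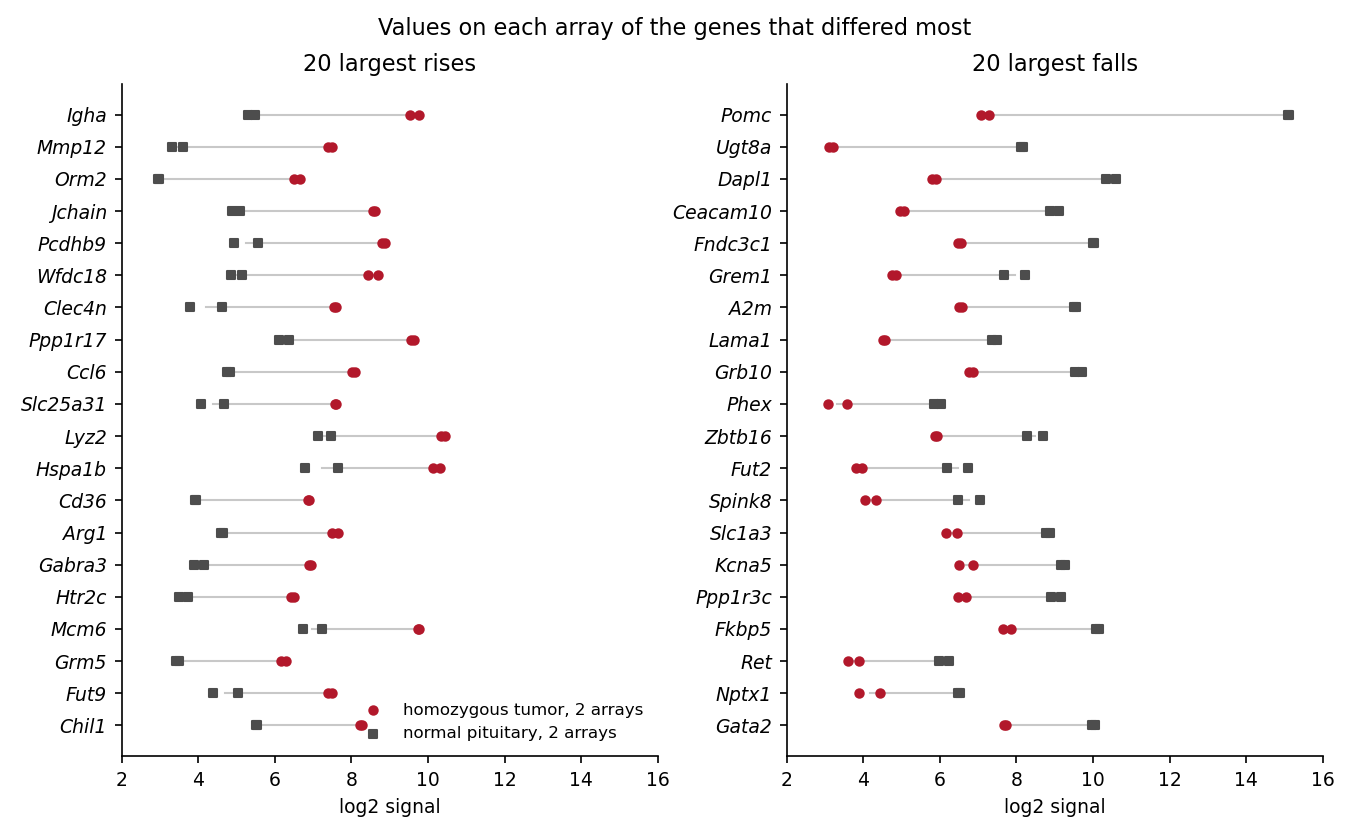
Log2 signal (horizontal axis) on the 2 homozygous arrays (red circles) and the 2 normal arrays (dark squares) of the 20 genes with the largest rises (left) and the 20 with the largest falls (right). The groups do not overlap for any of these genes, which follows from how they were chosen, and many of the rises start from normal values under the array median of 5.74.

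Of 26 tested genes that the glucocorticoid receptor is known to induce, 4 fell and 1 rose, with a median log2 fold change of -0.37. Zbtb16, a zinc finger repressor, was at 5.88 and 5.93 in the homozygous and at 8.69 and 8.28 in the normal arrays (-2.58, SE 0.37, adjusted p = 0.0208, limma). Fkbp5, the co-chaperone that restrains the receptor, was at 7.85 and 7.66 against 10.16 and 10.07 (-2.36, SE 0.17, adjusted p = 0.00323). Pdk4, a kinase that shuts off pyruvate dehydrogenase, fell by 1.87 on the log2 scale (SE 0.34) and Hif3a by 1.13 (SE 0.17). In all 4 the homozygous arrays lay below the normal arrays, which follows from their being called. The gene that rose was Lcn2, described above. Other classical targets were not called, with Tsc22d3 (GILZ) at -0.24, Sgk1 at -0.26, Per1 at -0.49 and Klf9 at -0.69. Zbtb16 and Fkbp5 also fell in the heterozygous tumors, by 1.87 and 1.62 on the log2 scale, and the differences between the genotypes, of -0.72 and -0.74, were not past the threshold (adjusted p = 0.587 and 0.200, limma). Without normal 1 or normal 2, Fkbp5 was the only 1 of the 4 to be called.

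None of the 6 pituitary hormone genes other than Pomc was called in limma. Gh (growth hormone) was at 14.73 and 14.71 in the homozygous and 14.86 and 14.86 in the normal arrays, Prl (prolactin) at 15.08 and 15.00 against 14.72 and 14.72, and Cga, the subunit shared by the glycoprotein hormones, at 14.31 and 14.29 against 14.73 and 14.72. These also lie near the top of the array's range, where a difference may be understated. Lhb was at 8.88 and 8.85 against 12.02 and 12.22, and Fshb at 8.77 and 8.73 against 13.06 and 12.96. These gonadotropin subunits differed by -3.25 (SE 0.75) and -4.26 (SE 1.32) and were not called (adjusted p = 0.0749 and 0.151, limma). The SE took in an SD of 0.94 and 1.68 among the heterozygous tumors, and in a fit of the homozygous and 2 normal samples alone the adjusted p-values were 0.00597 and 0.00289. In that fit the spread came from the 2 normal samples only, with none from homozygous tumors. Tshb, of thyrotropin, was at 11.05 and 11.15 against 12.61 and 12.47 (-1.44, adjusted p = 0.598). The Xist covariate moved several of these values. In that fit the log2 fold changes were -0.93 for Gh, -0.50 for Prl, -1.535 for Cga and -3.17 for Tshb. Those of Lhb and Fshb were -3.75 and -3.90. The nearness of Gh, Prl and Cga to normal is therefore not corrected for sex.

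The called members of these lineages were transcription factors and receptors. Of 9 tested gonadotroph genes 2 fell (median -1.35), of 7 thyrotroph genes 2 (median -1.09) and of 8 somatotroph and lactotroph genes 1 (median -0.72), and 0 rose. Gata2, a factor of gonadotrophs and thyrotrophs that stands in both lists, was at 7.68 and 7.72 in the homozygous and at 9.96 and 10.06 in the normal arrays (-2.31, SE 0.26, adjusted p = 0.0107, limma). Nr5a1 (SF-1, of gonadotrophs) fell by 1.35 on the log2 scale (SE 0.19), Foxl2 by 1.36 (SE 0.24) and Rxrg, a retinoid receptor, by 2.04 (SE 0.39). With the 12 arrays and the pair as a random block Nr5a1 (adjusted p = 0.0930, limma) and Rxrg (0.0634) were not called. Foxl2 and Rxrg were not called without any of the heterozygous pairs 1-2, 3-4 and 5-6, nor Nr5a1 and Foxl2 with the Xist covariate. Without normal 1 or normal 2, Gata2, Nr5a1, Foxl2 and Rxrg were all not called. Ghrhr, the receptor for growth hormone-releasing hormone, had a log2 fold change of -3.22 and Gnrhr, that for gonadotropin-releasing hormone, one of -2.25, and both missed the threshold (adjusted p = 0.0857 and 0.101).

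Of 11 tested melanotroph and corticotroph genes Pomc fell and Pitx1, a pituitary homeobox factor that activates Pomc, rose, at 10.26 and 10.24 against 8.91 and 9.31 (1.14, SE 0.21, adjusted p = 0.0396, limma). Pax7, which sets melanotroph identity, was at 0.66, Tbx19, required for Pomc expression, at -0.10, Pcsk1, which cleaves POMC, at -0.45, and Crhr1, the receptor for corticotropin-releasing hormone, at 0.80, none of them called. Crhr1 was at 7.57 and 7.48 in the homozygous, 6.77 and 6.67 in the normal and 5.28 ± 0.18 (SD, n = 4) in the heterozygous arrays, and differed between the tumor genotypes by 2.25 (adjusted p = 0.00368, limma). Of 31 secretory granule and hormone processing genes 0 were called in limma (7 at an unadjusted p under 0.05), with a median of -0.02 and values from -0.91 (Rab27b) to 1.25 (Vgf). Chgb (chromogranin B) was at 14.32 and 14.29 against 14.09 and 14.03. Pitx1 was not called with the Xist covariate, or without normal 1, normal 2 or any of the heterozygous pairs 1-2, 3-4 and 5-6.

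Among the receptors for dopamine and somatostatin, the targets of drugs for such tumors, 1 of 6 tested genes was called. Sstr5 was at 4.57 and 4.51 in the homozygous and at 6.20 and 6.22 in the normal arrays (-1.67, SE 0.17, adjusted p = 0.00899, limma). Drd2, the D2 receptor, was at 10.39 and 10.44 against 10.49 and 10.34 (0.01, SE 0.43). Sstr2 (6.03 and 6.13 against 6.73 and 6.65) had a value of -0.61 and Sstr3 (5.32 and 5.0 against 6.0 and 5.87) one of -0.78, both not called. A second, dimmer Sstr3 probe set was called lower, at 4.82 and 4.71 against 6.07 and 6.04 (-1.29, SE 0.23, adjusted p = 0.0369), so the probe sets of Sstr3 disagree on the call. Sstr5 thus lay above the median of all values in normal pituitary and below it in the tumor. Sstr1, at 6.76 and 6.76 against 5.19 and 5.24, had a value of 1.54 and was not called (adjusted p = 0.115). With the Xist covariate the log2 fold changes were 0.83 for Drd2, 0.01 for Sstr2, -0.98 for Sstr3 and -1.68 for Sstr5.

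Of 24 tested neurotransmitter receptor genes 4 rose and 0 fell, with a median of 0.05. Gabra3, a GABA-A receptor subunit, was at 6.89 and 6.94 against 3.90 and 4.15 (2.89, SE 0.23, adjusted p = 0.00419, limma). Htr2c, a serotonin receptor, was at 6.50 and 6.43 against 3.74 and 3.49 (2.85, SE 0.33). Grm5, a glutamate receptor, and Gabrb2, another GABA-A subunit, rose by 2.77 (SE 0.25) and 1.62 (SE 0.19). The Gabrb2 rise rests on 1 probe set: with no filter on low values a brighter probe set stands for the gene, at 0.11 (adjusted p = 0.785, limma). All 4 had normal values under the median of all values on the arrays. Grm5 and Gabrb2 passed the filter on low values only through the homozygous arrays. Of 32 voltage-gated channel genes 1 was called, Cacna1h, a T-type calcium channel, which fell by 2.10 on the log2 scale (SE 0.23). Of 14 neuropeptide genes Grp rose, as described below, and Vip and Nmu (neuromedin U, -1.18, SE 0.20) fell, with a median of -0.34. Among the 20 largest rises were also Pcdhb9, a clustered protocadherin with near-identical neighbours that its probes may read (3.59, SE 0.45), Ppp1r17, a phosphatase inhibitor (3.36, SE 0.49), and Fut9, a fucosyltransferase (2.73, SE 0.29).

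The largest falls after Pomc were of varied function. Ugt8a, which makes galactosylceramide, was at 3.20 and 3.10 in the homozygous and at 8.18 and 8.13 in the normal arrays (-5.01, SE 0.78). Dapl1 was at 5.91 and 5.80 against 10.34 and 10.59 (-4.61, SE 0.41), Ceacam10 fell by 3.98 on the log2 scale (SE 0.69) and Fndc3c1 by 3.50 (SE 0.42). Extracellular proteins were among them, with Grem1 (a BMP antagonist, -3.15), A2m (a protease inhibitor, -2.98) and Lama1 (a laminin chain, at 4.52 and 4.56 against 7.49 and 7.36, -2.88, SE 0.16). Slc1a3 encodes a transporter by which glia take up glutamate. It was at 6.17 and 6.44 against 8.78 and 8.87 (-2.51, SE 0.17) and was the only 1 of 16 posterior lobe and glia genes to be called, the list's median being -0.59. Of 23 imprinted genes 2 fell, Grb10 (-2.80, SE 0.50) and Mirg (-1.60, SE 0.27). Of 34 genes of collagen, stroma and basement membrane 2 fell, Lama1 and Nid2, with a median of -0.31. Ret (a receptor tyrosine kinase), Kcna5 (a potassium channel), Phex, Fut2, Spink8, Ppp1r3c and Nptx1 also fell, by 2.34 to 2.62 on the log2 scale. With no filter on low values brighter probe sets stand for Ret and Fut2, with smaller values. They were -1.23 for Ret, which was not called, and -1.35 for Fut2, which was.

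Smaller groups had few calls. Of 29 glycolysis and hypoxia genes 3 rose, Egln3 (an oxygen-sensing hydroxylase, 2.21), Ankrd37 (1.22) and Ldha (lactate dehydrogenase, 1.16), with a median of 0.30. None of the 3 was called without the heterozygous pair 3-4, normal 1 or normal 2, and only Egln3 was with the Xist covariate. Of 20 endothelial and mural genes Esm1 (1.38) and Acta2 (1.35) rose, whereas Pecam1 (0.33), Cdh5 (0.14) and Kdr (-0.28) were not called. Scd1 and Elovl6 fell among 27 genes of cholesterol and fatty acid synthesis, by 2.02 and 1.05 on the log2 scale. Adcyap1r1, the receptor for the peptide PACAP, was the 1 gene called among 32 of the cAMP pathway, at -1.45. Of 34 cadherin and epithelial adhesion genes Cdh10 rose (2.29) and Cldn7 (-1.44) and Cldn4 (-1.01) fell. Of 32 respiratory chain genes 0 were called in limma (1 at an unadjusted p under 0.05), with values from -0.53 to 0.34. No gene was called in limma among 13 complement genes (3 at an unadjusted p under 0.05), 21 immediate early genes (2), 21 genes of the Bcl2 family and caspases (3), 16 housekeeping genes (1), 8 sex-linked genes (1) or 2 erythrocyte genes (0). Xist and the Y-linked genes still differed widely, as given above. Their SE took in heterozygous samples of both high and low Xist (SD 3.64 for Xist). A dimmer Eif2s3x probe set, which does not stand for the gene, was called higher (1.70, SE 0.26). Of 17 chemokine genes Ccl6 was called, of 20 steroid and thyroid hormone receptors Rxrg, and of 16 pituitary progenitor and early transcription factors Pitx1 and Ret. The limits given above for Rxrg, Pitx1 and Ret hold here too.

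The heterozygous tumors were set against the same 2 normal samples, so the values of both contrasts are given side by side without a count of shared genes. Mmp12 had log2 fold changes of 3.97 in the homozygous and 5.25 in the heterozygous tumors, Mcm6 of 2.77 and 3.77, and Gata2 of -2.31 and -3.52. For none of these 3 genes was the difference between genotypes past the threshold (adjusted p = 0.379, 0.479 and 0.163, limma). Igha (4.25 and 2.48) had the reverse order, with the difference also not past the threshold (adjusted p = 0.425).

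The direct contrast of the homozygous sample with the 4 heterozygous samples called 36 of 12316 genes (0.292%). Of these, 17 were also among the 339 of 12316 genes called against normal pituitary. Both contrasts hold the same homozygous sample, so overlap is built in and the 17 is not read as a result. Pomc had the largest difference of the 17, at 7.18 in the homozygous tumor and 15.25 ± 0.07 (SD, n = 4) in the heterozygous tumors. Grp, which encodes gastrin-releasing peptide, was at 9.55 and 9.62 in the homozygous, 6.80 and 7.23 in the normal and 4.16 ± 0.22 (SD, n = 4) in the heterozygous arrays. It thus rose in one genotype and fell in the other, and the homozygous tumor exceeded the heterozygous tumors by 5.43 (SE 0.24, adjusted p = 0.000335, limma). Slc25a31, a mitochondrial ADP/ATP carrier known from testis, was at 7.58 and 7.59 in the homozygous arrays, 4.08 and 4.67 in the normal arrays and 2.97 ± 0.03 in the heterozygous tumors. It passed the filter on low values only through the homozygous arrays. Vip, encoding vasoactive intestinal peptide, was lower than normal in both genotypes and less so in the homozygous tumor, at 6.18 and 6.43 against 7.79 and 7.83 in normal and 3.56 ± 0.24 in heterozygous tissue. Its difference from normal pituitary in the homozygous tumor was not called with the pair as a random block (adjusted p = 0.148, limma), without normal 1 (0.105) or normal 2 (0.107), or without pair 3-4 (0.0535).

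The others of the 10 genes with the largest such differences were not called in heterozygous tumors against normal pituitary. Grm5 was at 3.36 ± 0.26 (SD, n = 4) in the heterozygous tumors against 6.17 and 6.28 in the homozygous arrays. Kcnip4, a potassium channel partner, was at 4.95 ± 0.26 against 7.28 and 7.35, and Qrfpr, a neuropeptide receptor, at 3.0 ± 0.17 against 6.02 and 6.09. Bpifa2 and Wfdc18, the secreted proteins described above, were at 3.50 ± 0.15 and 5.55 ± 0.53 in the heterozygous tumors. Grm5, Kcnip4, Qrfpr and Bpifa2 passed the filter on low values only through the homozygous arrays. They could be tested only because they are high there, so their higher level in the homozygous tumor is partly built in. Ola1, an ATPase, was with Pomc the only gene of the 10 to be lower than in the heterozygous tumors, at 10.43 and 10.39 in the homozygous, 12.47 and 12.69 in the normal and 12.84 ± 0.39 in the heterozygous tissue. Like that of Igha, its probe set carries the suffix that marks probes shared with other transcripts, so the gene read from it is uncertain. The homozygous side of each contrast is 1 sample, and the Wfdc18 and Ola1 differences (adjusted p = 0.0484 and 0.0389, limma) were not called in several of the other fits.

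**Figure D5:**
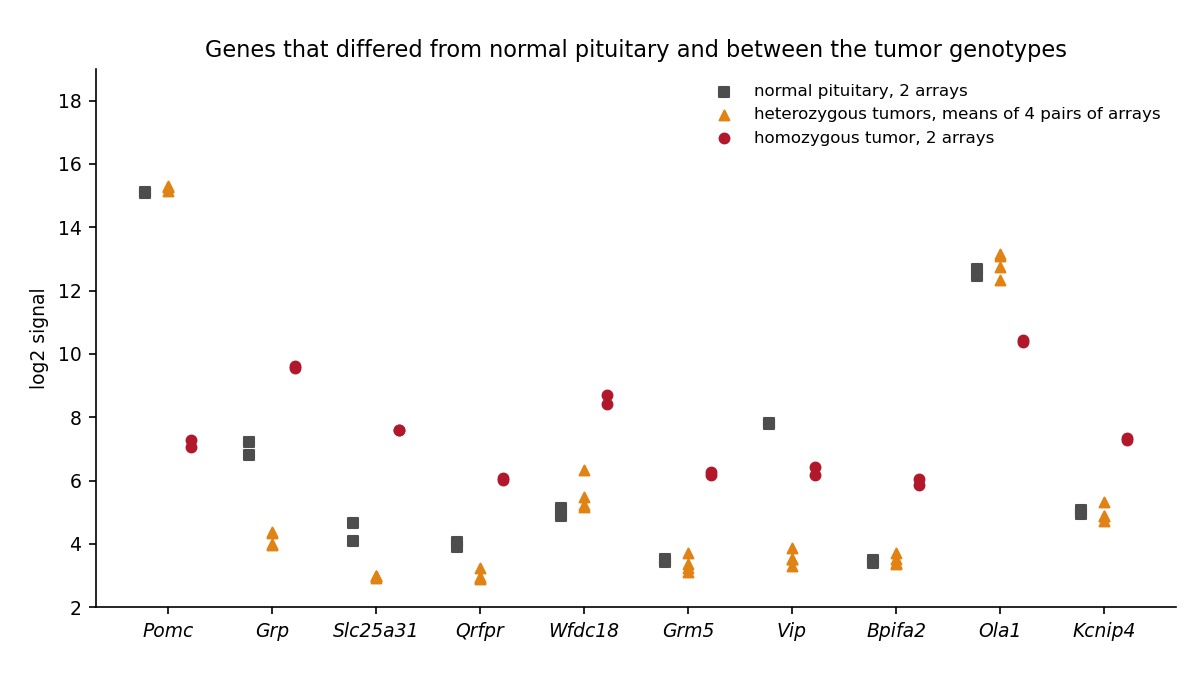
Log2 signal (vertical axis) of the 10 genes with the largest differences between homozygous and heterozygous tumors among those also called against normal pituitary, in the 2 normal arrays (squares), the means of the 4 heterozygous pairs (triangles) and the 2 homozygous arrays (circles). Pomc and Ola1 are lowest in the homozygous tumor, Vip lies between the other groups, and the remaining 7 genes are highest in the homozygous tumor. Of these, Slc25a31, Qrfpr, Grm5, Bpifa2 and Kcnip4 passed the filter on low values only through the homozygous arrays, so this is partly built in.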

How the data were processed

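RNA of the pituitary tissue was hybridised to 12 Affymetrix whole-genome mouse arrays. Per the labels, the authors deposited log2 values normalised by robust multi-array average (RMA) in Affymetrix Expression Console, whose version is not given in the sources used here. RMA and the number of arrays, not a read depth, limit the precision, and the detection-call filter named in the study's methods was not applied. Arrays of 1 genotype that differed by more than 2-fold at fewer than 10 probe sets were averaged, giving 7 samples. Nothing in the labels says that such arrays were of 1 mouse. Where the labels do not show separate animals, p-values measure the spread between samples, which may be technical.

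The genotypes were fitted with limma 3.58.1 in R 4.3.3 (lmFit, contrasts.fit and eBayes), with Benjamini-Hochberg adjustment over 24486 tested probe sets, after a check of the fit on simulated data. The tested probe set with the highest mean over the 12 arrays stood for a gene. Probe sets were named from the platform's annotation, updated to RefSeq symbols (GRCm38.p6), and 34945 of 45037 named 1 gene. Of 571 called probe sets, 63 named none or several and stay unnamed.

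The text names Pomc, the 20 largest rises and falls, the 10 largest differences between tumor genotypes, up to 5 called members of each of 37 gene lists, the hormone and sex-linked genes and the somatostatin and dopamine receptors. Other names were chosen after their values were seen, and the members and lists were chosen with earlier results of these data known. Alternatives varied the averaging, samples, filter, scaling, covariate and test.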

Additional observations from a re-analysis of the deposited data

Results flagged for a closer look

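Of the 17 genes called against normal pituitary that also differed between homozygous and heterozygous tumors in limma, 11 are listed. They are those named by the rules given above, and others, such as Slc6a14, are left out. As homozygous minus heterozygous log2 signal, the differences were -8.07 for Pomc, 5.43 for Grp, 4.61 for Slc25a31, 3.06 for Qrfpr, 3.02 for Wfdc18, 2.87 for Grm5, 2.75 for Vip, 2.45 for Bpifa2, -2.43 for Ola1, 2.37 for Kcnip4 and 2.12 for Gabrb2. The homozygous side was 1 sample for each gene. The size for Pomc is uncertain, as its heterozygous signals (15.25) lie near the top of the array's range, and the Gabrb2 difference was not called with no filter on low values, where a brighter probe set stands for the gene. Slc25a31, Qrfpr, Grm5, Bpifa2, Kcnip4 and Gabrb2 passed the filter only through the homozygous arrays. The Ola1 probe set carries the suffix that marks probes shared with other transcripts.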

How the results depend on the processing

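All 339 called genes kept their sign in every alternative that tested them (204 of 204 with the filter at the 75th percentile), while the number called depended on the samples. In many of these fits the homozygous minus normal difference is the same by construction. All 339 genes were also chosen for a fold change over 2, so their kept sign gives little support. Against 339 genes and 571 probe sets, 693 and 1203 were called with the 12 arrays as separate samples, 550 and 940 with the pair as a random block (correlation 0.844), 809 and 1380 with the 4 homozygous and normal arrays alone, 624 and 1001 with the homozygous and 2 normal samples alone, 216 and 336 with the filter at the 75th percentile, and 727 and 1261 with the one-way test over 3 genotypes on 12 arrays. The fits that count near-identical arrays as separate samples take their likeness for replicate agreement by construction. The replicate block on those 4 arrays gave 819 genes and 1417 probe sets, but the replicate numbers do not pair the samples (correlation of deviations -0.00261). Leaving out 1 sample or array gave 34 to 390 genes and 64 to 654 probe sets, lowest without normal 2 (34 and 64) and normal 1 (35 and 73), then without the heterozygous pair 3-4 (209 and 330). With no filter 364 genes were called, 174 higher and 190 lower, with repeated quantile normalization 362, with arrays centred on housekeeping genes 342 (202 higher and 140 lower), and with the median over the probe sets of a gene 419. The 36 genes that differed between tumor genotypes became 305 with 12 separate arrays, 142 with the random block, 11 with the filter at the 75th percentile, 18 without normal 1 or normal 2, 19 without pair 3-4 and 146 without pair 7-8. Pomc was called in every fit, with log2 fold changes from -8.02 to -7.81 at 1 probe set and -9.25 at the other. Its normal signals lie near the top of the array's range, so the narrow range says nothing of the true size. Signals under the median of all values limit 76 called genes in normal pituitary or, for falls, 50 in the tumor. The cause of the other changes in the counts was not tested.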
